A study of Mus musculus with 38 samples.

Results

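The genes described here encode the nuclear subunits of the oxidative phosphorylation system, together with the complex I assembly factors of the Ndufaf family. Members were every protein-coding row of the count table whose mouse symbol starts with Ndufa, Ndufb, Ndufc, Ndufs, Ndufv, Uqcr, Cox4 to Cox8 or Atp5, or is Sdha, Sdhb, Sdhc or Sdhd. This rule gave 93 of the 24028 genes in the table, and 87 of the 93 passed the filter on low counts. It uses names only and no measured value. RNA-seq had been run on 38 libraries of mouse CD4+ T cells, each from the lymph nodes and spleen of a single mouse. Naive cells were taken directly after isolation. Activated cells were cultured for 24 h on plates coated with 0.5 µg/ml anti-CD3 and 0.2 µg/ml anti-CD28, in medium with 50 U/ml IL2, and this holds for all 5 genotypes.

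The genotypes were wt, CD28-/-, T1792delta/delta, T1792tg/tg and rescue, with 4 libraries for each genotype and state and 3 for rescue. CD28-/- is a germline knockout of the costimulatory receptor on the B6 background. T1792delta/delta carries floxed miR-17∼92, a cluster of 6 microRNA genes, removed by CD4cre, a Cre recombinase driven in T cells by CD4 sequences. T1792tg/tg carries CD4cre and a miR-17∼92 transgene in Rosa26 that Cre switches on through a floxed stop. The rescue group carries the same Cre and transgene on CD28-/-. Wt and CD28-/- have no CD4cre by their descriptions, so Cre and the alleles it acts on cannot be told apart. No cells cultured without stimulation were analysed, so time in culture and stimulation cannot be told apart either.

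Oxidative phosphorylation couples electron transport in the inner mitochondrial membrane to ATP synthesis. Complex I takes electrons from NADH and complex II from succinate, complex III passes them from ubiquinol to cytochrome c, and complex IV reduces oxygen. The proton gradient built by complexes I, III and IV drives the ATP synthase. Complex II is coded by nuclear genes alone, while each of the others also holds subunits coded by mitochondrial DNA, which were not analysed here. Naive T cells are small and metabolically quiet, and activation is known to raise both glycolysis and mitochondrial respiration.

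Library depth was 19427291 to 28020721 counts. The CD4 T cell markers were present throughout, with 8 of 9 having a row and summing to 4987 to 5628 CPM (counts per 1000000 of the scaled library total) in naive and 2756 to 4634 CPM in 24 h libraries. The markers of B cells summed to 126 to 524 CPM in naive and 22.3 to 90.1 CPM in 24 h libraries, those of myeloid cells to 89.3 to 339 and 7.72 to 18.9 CPM, and those of NK and CD8 T cells to 108 to 190 and 20.3 to 61.8 CPM. The 6 markers of regulatory T cells, some of which activated T cells also express (Il2ra, Ctla4), differed between the genotypes. At 24 h they summed to 580 to 636 CPM in T1792delta/delta, 664 to 704 CPM in CD28-/-, 831 to 863 CPM in wt, 1069 to 1100 CPM in rescue and 1095 to 1159 CPM in T1792tg/tg, and in naive cells to 203 to 261, 147 to 173, 247 to 288, 198 to 227 and 292 to 431 CPM in that order. Haemoglobin and the other red cell markers, 3 of 5 with a row, reached 5047 CPM in a naive T1792delta/delta library and at most 88.5 CPM at 24 h. The part of these cells in the results was not tested. Cd28 itself averaged 539 ± 40.4 CPM (SD, n = 4) in 24 h libraries labelled CD28-/- and 342 ± 35.5 CPM (SD, n = 4) in wt, and 440.1 ± 39.0 CPM (SD, n = 3) in 24 h rescue, which is on the same knockout. In naive cells Cd28 averaged 737 ± 135 CPM (SD, n = 4) under the CD28-/- label, 574 ± 64.8 CPM (SD, n = 3) in rescue and 825 ± 86.8 CPM (SD, n = 4) in wt. At 24 h its level was above that of wt in both knockout groups. In naive cells both averaged below wt (716 to 926 CPM), with overlap for the CD28-/- label (551 to 846 CPM) and none for rescue (502 to 627 CPM). Naive T1792tg/tg, not a knockout by label, averaged 530 ± 148 CPM (SD, n = 4). So a loss of the Cd28 transcript is not seen in either state. The libraries of the CD28-/- group are called labelled CD28-/- throughout. Counts per gene do not show which exons were read. Mir17hg, the host transcript of miR-17∼92, averaged 96.6 ± 10.1 CPM (SD, n = 4) in naive T1792tg/tg and 51.6 ± 7.25 CPM (SD, n = 4) in naive wt cells. It was 172 ± 11.8 CPM in 24 h T1792delta/delta and 20.7 ± 2.44 CPM in 24 h wt cells (SD, n = 4 each), so it is not lower under the deletion label. Gt(ROSA)26Sor, a transcript of the Rosa26 locus, averaged 13.6 ± 1.40 CPM in naive and 10.8 ± 0.282 CPM in 24 h T1792delta/delta. It was at 0.676 ± 0.147 and 0.0673 ± 0.0191 CPM in T1792tg/tg and 0.215 ± 0.101 and 0.0688 ± 0.0596 CPM in wt (SD, n = 4 each). The source of this difference was not tested.

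Many of these genes share short promoters in which binding sequences of NRF-1, the ETS factor GABPA and YY1 are known. RefSeq promoters of GRCm38.p6, from 250 bases before to 50 bases after the start, were matched for 76 of the 93 genes, giving 81 promoters. The core NRF-1 sequence CGCATGCG, searched on both strands, was present in 13.6% of these promoters and in 1.87% of all 32851 promoters of that length. The ETS sequence CCGGAAG was present in 23.5% and 8.86%, and the YY1 sequence AAGATGGCG in 9.88% and 1.4%. The 32851 promoters belong to 27025 genes and were not limited to genes expressed in these cells, as nearly all the members are. The motifs do not overlap in the promoters printed here. Those 3 promoters are shown because their genes turn up again below: Atp5j (chr16:84834927-84835226, minus strand) is the sole member with all 3 kinds, Uqcr11 (chr10:80406772-80407071, minus strand) holds an NRF-1 and an ETS sequence, and Cox7a2l (chr17:83514284-83514583, minus strand) holds none. Capitals mark the motifs.
Atp5j promoter: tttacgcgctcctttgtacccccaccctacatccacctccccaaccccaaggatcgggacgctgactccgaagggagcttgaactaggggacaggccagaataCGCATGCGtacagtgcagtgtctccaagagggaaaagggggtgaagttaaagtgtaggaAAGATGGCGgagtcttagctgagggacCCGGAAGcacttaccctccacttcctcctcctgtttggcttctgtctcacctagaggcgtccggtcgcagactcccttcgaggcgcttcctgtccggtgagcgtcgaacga
Uqcr11 promoter: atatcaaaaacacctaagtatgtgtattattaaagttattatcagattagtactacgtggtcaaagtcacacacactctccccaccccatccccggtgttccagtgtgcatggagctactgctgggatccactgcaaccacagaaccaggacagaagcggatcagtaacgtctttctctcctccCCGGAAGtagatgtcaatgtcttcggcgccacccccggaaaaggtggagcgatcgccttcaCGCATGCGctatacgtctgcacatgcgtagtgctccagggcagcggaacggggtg
Cox7a2l promoter: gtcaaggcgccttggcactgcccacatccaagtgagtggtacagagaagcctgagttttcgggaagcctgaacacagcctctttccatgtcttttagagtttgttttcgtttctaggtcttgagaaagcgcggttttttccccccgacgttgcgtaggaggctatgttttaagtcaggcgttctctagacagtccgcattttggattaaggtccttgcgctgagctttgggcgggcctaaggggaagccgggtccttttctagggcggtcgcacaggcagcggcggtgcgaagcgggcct
The 31 tested members with a motif in a promoter had a median log2 change at 24 h in wt cells of 1.13, and the 42 with none had 1.22. A match describes these letters only.

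The summed level of the 93 genes was about 2-fold higher after 24 h in wt cells. In naive wt libraries the sum was 7970, 6783, 6393 and 7611 CPM, and in 24 h wt libraries 14699, 14526, 14427 and 14222 CPM. No library of either state came near the other, and the ratio of the means was 2.01. Their share of all counts was 0.692% ± 0.0493 (SD, n = 4) in naive and 1.45% ± 0.0115 (SD, n = 4) in 24 h wt libraries. These are shares of a library, so fewer transcripts of other genes and more of these cannot be told apart, nor can a change in the mix of cells and one in the RNA of each cell.

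**Figure D1:**
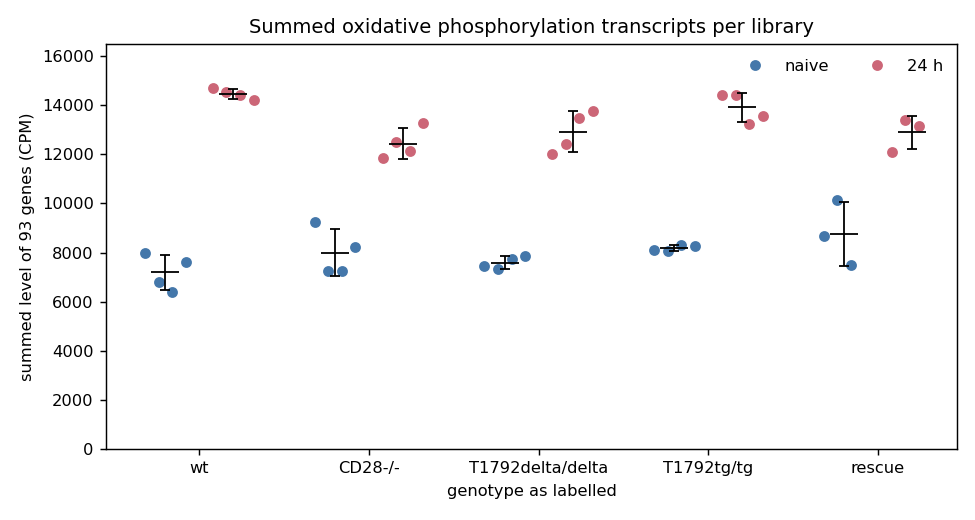
Summed CPM of the 93 genes (vertical axis) in each library, by genotype as labelled, with naive cells in blue and 24 h cells in red; bars are mean ± SD. The 24 h libraries of every genotype lie above the naive ones, and the 24 h wt libraries (14222 to 14699 CPM) lie above all 24 h libraries labelled CD28-/- (11833 to 13287 CPM).

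On the scale of CPM per kilobase of the gene length in the table, Atp5b, the catalytic beta subunit of the ATP synthase, was the most abundant member in both states of wt cells. Its level per kilobase was 406 ± 37.2 in naive and 972 ± 51.9 in 24 h cells (SD, n = 4). In naive cells Uqcrh, the hinge protein of complex III, followed at 384 ± 55.2 and Cox4i1 of complex IV at 374 ± 56.0, and these 3 did not differ beyond their spread. At 24 h Atp5b stood clear of the next gene, Atp5g3 of the c-ring, which had 676 ± 31.5. Uqcrh went from rank 2 to rank 11 of 93 and Cox7a2l from rank 6 to rank 61.

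At 24 h, 78 of the 87 tested members rose and 2 fell in wt cells by edgeR's quasi-likelihood test with Benjamini-Hochberg adjustment (adjusted p below 0.05). Over all 13650 genes tested, 41.3% rose and 43.9% fell. The members' median log2 change was 1.13 and that of all genes -0.06. Short transcripts outside the set, 164 genes of at most 700 bases with at least 10 CPM on average, rose as well. Their median was 0.59, with 59.1% higher and 25% lower. Members of at most 700 bases (43) had a median of 1.25 and the 44 longer ones 1.05. With a log2 change of at least 1 also required, 50 members rose and 2 fell, against 24.5% and 29.3% of all genes. All 4 libraries at 24 h lay above all 4 naive libraries for 78 members and below them for 2, against 39.4% and 41% of all genes. The 2 that fell were Cox7a2l and Cox6a2, a muscle isoform at the limit of detection. The 7 not called were Ndufa6, Ndufb11, Ndufv3, Ndufaf3, Uqcrh, Atp5g2 and Cox6b2.

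**Figure D2:**
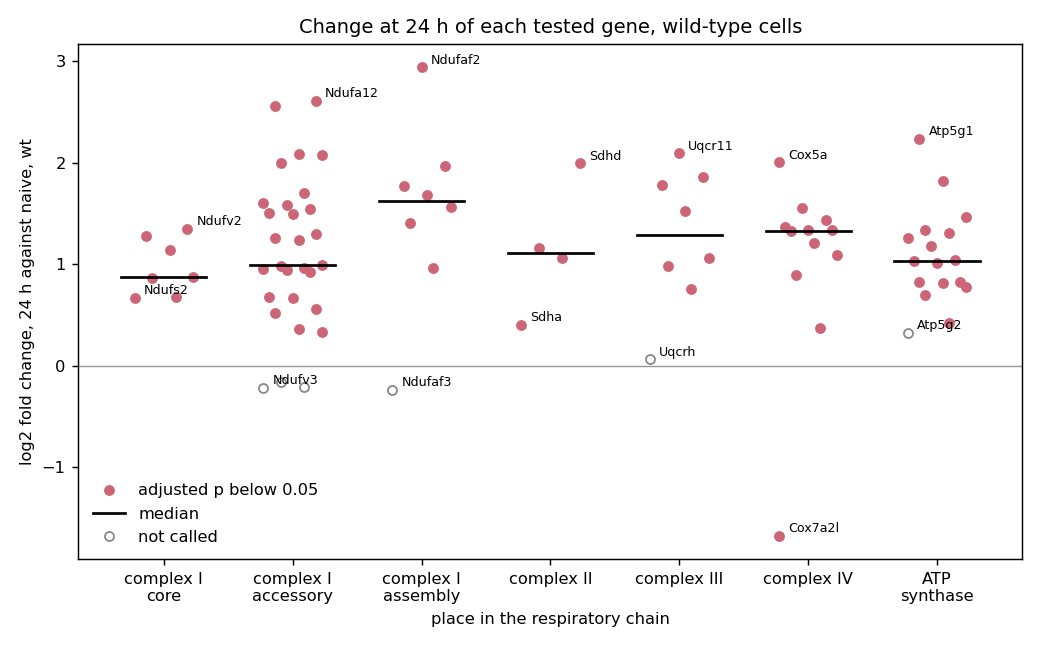
Log2 fold change between naive and 24 h wt cells (vertical axis) of 85 tested genes, grouped by place in the respiratory chain, with filled points for adjusted p below 0.05, open points for genes not called and a line at each group's median. Assembly factors have the highest median (1.62), complex I core subunits the lowest (0.87), and Cox7a2l of complex IV lies alone at -1.68.

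Complex I is the entry point for electrons from NADH. All 7 tested core subunits rose in wt cells, with log2 changes between 0.67 and 1.35 and a median of 0.87. Ndufv1 (Entrez Gene 17995, chr19:4007499-4012755), which binds NADH and flavin, was at 76.9, 70.1, 73.3 and 86.1 CPM in naive and 148, 144, 135 and 132 CPM in 24 h wt libraries. Its groups lay apart, with a log2 change of 0.87 ± 0.06 (SE, adjusted p = 2.1e-15). Ndufs1, the largest iron-sulphur subunit, changed by 0.68 ± 0.05. It overlaps another counted gene (Ino80dos), so a part of its reads could belong elsewhere. The accessory subunits, which surround the core without carrying electrons, spread more widely: 26 of 29 rose, with a median of 0.995 and a range of -0.22 to 2.61.

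Ndufa12 and Ndufab1 were the accessory subunits with the largest rise. Ndufab1 (Entrez Gene 70316, chr7:122086815-122101848) is the mitochondrial acyl carrier protein, shared between complex I and fatty acid synthesis. It stood at 8.13, 7.51, 6.73 and 6.56 CPM in naive and at 44.3, 40.6, 39.5 and 45.3 CPM in 24 h wt libraries. No overlap was left between the states, and the log2 change was 2.55 ± 0.09 (SE, adjusted p = 7.6e-24). Ndufa12 (Entrez Gene 66414, chr10:94199035-94221440) went from 8.42 to 10.4 CPM in naive to 56.2 to 59.0 CPM in 24 h libraries, a change of 2.61 ± 0.11 (SE, adjusted p = 5.1e-22). Ndufa5 (Entrez Gene 68202, chr6:24518662-24527690), a subunit of the arm that faces the matrix, went from 16.9 to 23.3 CPM to 80.7 to 90.6 CPM. Ndufv3 and Ndufa6 did not pass the test: Ndufv3 lay at 60.9 to 78.2 CPM in naive and 59.6 to 61.4 CPM in 24 h libraries, and Ndufa6 at 62.6 to 96.8 and 68.3 to 71.9 CPM.

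The Ndufaf genes code for assembly factors, which help build complex I and are not part of the finished enzyme. Of 8 members, 7 rose in wt cells and 1 did not pass the test, and their median log2 change of 1.62 was the highest of the roles. Their summed level rose 3.19-fold, from 91.2 ± 7.15 to 291 ± 8.04 CPM (SD, n = 4). Ndufaf2 (Entrez Gene 75597, chr13:108052589-108158652) had the largest rise of the 87 members. It was at 5.78, 5.07, 4.56 and 4.88 CPM in naive and 41.3, 37.6, 39.0 and 37.2 CPM in 24 h wt libraries. That is a 7.65-fold rise with the states far apart, or 2.94 ± 0.12 on the log2 scale (SE, adjusted p = 7.1e-22). Ndufaf4 (Entrez Gene 68493, chr4:24898083-24905001), which works early in assembly, went from 23.6, 28.1, 29.7 and 33.05 CPM to 121, 107, 107 and 111 CPM, again without overlap. Ndufaf1 changed by 1.68 ± 0.11. Ndufaf3 was the member not called, at 7.70 to 12.0 CPM in naive and 7.43 to 9.14 CPM in 24 h libraries.

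Complex II links the TCA cycle to the quinone pool, and its 4 subunits rose by unequal amounts. Sdha (Entrez Gene 66945, chr13:74322255-74350240), the flavoprotein that oxidises succinate, was at 291, 219, 225 and 274 CPM in naive and 342, 332, 336 and 326 CPM in 24 h wt libraries. Its states lay apart, with a log2 change of 0.40 ± 0.08 (SE, adjusted p = 1.9e-05). The membrane anchor Sdhd (Entrez Gene 66925, chr9:50596340-50603849) was at 69.8, 67.2, 66.3 and 63.8 CPM in naive and 290.4, 250.5, 274 and 249 CPM in 24 h libraries. Its change was 1.99 ± 0.09 (SE, adjusted p = 1.8e-21). The iron-sulphur subunit Sdhb changed by 1.06 ± 0.09 and Sdhc, the other anchor, by 1.15 ± 0.07. The difference between Sdha and Sdhd was not tested, but their standard errors are small beside it.

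Complex III passes electrons to cytochrome c, and 7 of its 8 members rose. The core proteins Uqcrc1 and Uqcrc2 changed by 0.98 ± 0.08 and 0.75 ± 0.09. Uqcrfs1 (Entrez Gene 66694, chr13:30540312-30545316) is the Rieske iron-sulphur protein, which takes the electron from ubiquinol. It was at 125, 128, 109 and 119.7 CPM in naive and 249, 255, 250.5 and 247 CPM in 24 h wt libraries. The states did not overlap, and the log2 change was 1.06 ± 0.08 (SE, adjusted p = 4.7e-15). The small subunits Uqcrq and Uqcr11 had larger changes, of 1.85 ± 0.12 and 2.09 ± 0.16. Uqcrh stood apart in its complex: its naive values of 173 to 242 CPM enclosed its 24 h values of 213 to 229 CPM, and it was not called (0.06 ± 0.11, adjusted p = 0.60).

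In complex IV, cytochrome c oxidase, 11 of 12 members rose and Cox7a2l fell. Cox5a (Entrez Gene 12858, chr9:57517328-57532427) was at 54.8, 49.9, 45.6 and 53.1 CPM in naive and 192, 204, 201 and 216 CPM in 24 h wt libraries, a change of 2.002 ± 0.10 (SE, adjusted p = 5.3e-20). Cox4i1, a subunit that binds ATP, changed little by comparison, from 241 to 324 CPM to 355 to 379.7 CPM (0.37 ± 0.09, adjusted p = 2.6e-04). Cox5b, Cox6a1 and Cox8a changed by 1.20 ± 0.17, 0.90 ± 0.11 and 1.43 ± 0.14. Ndufa4, named for complex I and now known as a subunit of complex IV, rose from 68.0 to 88.0 CPM to 224 to 238 CPM.

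Cox7a2 and Cox7a2l moved in opposite directions in all 5 genotypes. Cox7a2 is the common form of a small complex IV subunit, and Cox7a2l, also called SCAF1, is its relative that joins complex IV to complex III in supercomplexes. Cox7a2l (Entrez Gene 20463, chr17:83501917-83514333) was at 376, 289, 280.3 and 352 CPM in naive and 99.1, 98.6, 101 and 107 CPM in 24 h wt libraries. It fell by 1.68 on the log2 scale (SE 0.09, adjusted p = 3.4e-19), with the states far apart. Cox7a2 (Entrez Gene 12866, chr9:79755241-79771422), which overlaps Tmem30a, went the other way, from 79.5, 74.9, 62.7 and 79.5 CPM to 194, 188, 187 and 194 CPM (1.36 ± 0.11, adjusted p = 2.7e-13). Per kilobase, Cox7a2l made up 74.1% ± 1.67 of the pair in naive and 25.9% ± 0.650 in 24 h wt cells (SD, n = 4). An exact two-sided permutation test gave p = 0.0286, the smallest that 4 against 4 allows, and 0.0782 after adjustment over 52 tests of shares.

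The share of Cox7a2l fell less far in cells labelled CD28-/-. It went there from 70.9% ± 1.59 to 35.0% ± 0.393, so the 24 h libraries of 34.7 to 35.6% lay above the 25.1 to 26.6% of wt (SD, n = 4, exact permutation p = 0.0286, adjusted 0.0782). Cox7a2l itself was similar in these 24 h groups, at 104 to 119 CPM and 98.6 to 107 CPM, while Cox7a2 was at 125 to 146 CPM and 187 to 194 CPM. The share at 24 h was 25.98% ± 0.849 in T1792delta/delta and 24.7% ± 1.02 in T1792tg/tg cells. In rescue it was 28.5% ± 1.60 (n = 3), with all libraries (26.8 to 30.04%) below those labelled CD28-/-. That comparison of 3 with 4 libraries cannot go below an exact p of 0.0571, which is the value it gave.

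**Figure D3:**
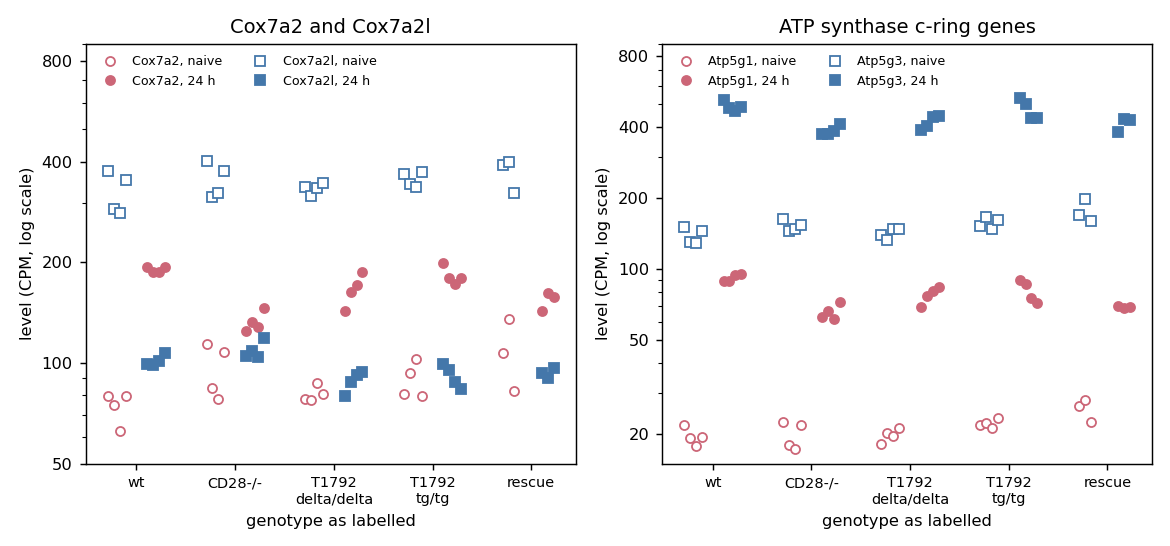
CPM on a log axis in each library for Cox7a2 and Cox7a2l (left) and the c-ring genes Atp5g1 and Atp5g3 (right), with open symbols for naive and filled ones for 24 h cells, by genotype as labelled. Cox7a2l drops from 280.3 to 376 CPM to 98.6 to 107 CPM in wt while Cox7a2 rises, and Atp5g1 and Atp5g3 rise together.

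The ATP synthase makes ATP from the proton gradient, and 16 of its 17 members rose in wt cells, with a median of 1.04. Atp5b (Entrez Gene 11947, chr10:128083307-128090388), which overlaps Mir677, was at 839, 715, 694 and 804 CPM in naive and 1847, 1917, 1853 and 1688 CPM in 24 h libraries. It rose 2.39-fold (log2 1.26 ± 0.07, adjusted p = 9.2e-19). The alpha subunit Atp5a1 rose by 1.02 ± 0.06 and the gamma shaft Atp5c1 by 0.69 ± 0.08. Of the 3 genes that code for the identical mature c-ring protein, Atp5g1 went from 17.9 to 21.8 CPM to 88.9 to 95.6 CPM (2.23 ± 0.09) and Atp5g3 from 129.6 to 151 CPM to 468 to 522 CPM (1.82 ± 0.07). Atp5g2 stayed near the limit, at 0.735 to 1.64 CPM over both states. Per kilobase, Atp5g1 supplied 10.5% ± 0.412 of c-ring transcripts in naive and 13.5% ± 0.839 in 24 h wt cells (SD, n = 4, exact permutation p = 0.0286, adjusted 0.0782). Atp5l shares 75.7% of its 76-base windows with other genes, so its values are uncertain, as are those of 9 other members that share over 25%. Atp5g2, at 35.7%, is among them, so the c-ring shares hold this uncertainty.

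Tissue-specific forms were nearly silent. Of 8 such genes, 6 did not pass the filter on low counts, Cox7b2 and Cox8c had no count in any library, and the highest single value was 2.07 CPM for Cox6b2. Cox6a2 was at 0.238 ± 0.118 CPM in naive and 0.01002 ± 0.0200 CPM in 24 h wt cells (SD, n = 4), so its fall rests on few counts.

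Partners of the chain outside the name rule rose as well. Among 13 tested carriers and partner genes, 13 rose and 0 fell in wt cells, including Cyc1, the cytochrome of complex III (78.6 ± 4.51 to 257 ± 13.6 CPM, SD, n = 4), and Vdac1, the main outer membrane channel (84.5 ± 1.55 to 431 ± 1.63 CPM). Of 39 assembly factors for the complexes, 33 rose and 2 fell, Tmem70 of the ATP synthase rising by 2.36 ± 0.09. In the TCA cycle and pyruvate dehydrogenase list, 17 of 18 rose, with Fh1 (fumarase) at 2.14 ± 0.08 and Idh3a at 2.003 ± 0.06. The 21 regulators of mitochondrial transcription and biogenesis were mixed, with 10 higher and 7 lower: Myc rose from 148 ± 12.1 to 496 ± 9.59 CPM (SD, n = 4), while Polg2, a subunit of the mitochondrial DNA polymerase, fell by 1.84 on the log2 scale. For reference, 41.3% of all genes rose and 43.9% fell.

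In the other genotypes most members rose as well, with smaller medians. Cells labelled CD28-/- had 71 members higher and 4 lower (background 39.7% and 41.2%) with a median of 0.76. T1792delta/delta had 73 and 7 (41.4% and 43.7%) with 0.87, T1792tg/tg 74 and 9 (41% and 44.1%) with 0.83, and rescue 65 and 8 (38.8% and 40.8%) with 0.62. The sum of all members rose 1.56-fold, 1.70-fold, 1.70-fold and 1.47-fold in that order, against 2.01-fold in wt. The 164 short transcripts outside the set also had smaller medians than in wt (0.59), of 0.22, 0.22, 0.27 and 0.14 in that order. Of them 45.1 to 52.4% were higher and 31.7 to 39% lower in these genotypes. A log2 change of at least 1 was reached by fewer members, with 23 higher and 1 lower in cells labelled CD28-/- (19.6% and 23.9% of all genes), 30 and 2 in T1792delta/delta (23.6% and 28.7%), 32 and 2 in T1792tg/tg (23.7% and 29.1%) and 19 and 2 in rescue (20.8% and 25%). Uqcrh, flat in wt, fell in the other 4 genotypes, by 0.37 ± 0.11 in cells labelled CD28-/-, 0.30 ± 0.11 in T1792delta/delta, 0.27 ± 0.11 in T1792tg/tg and 0.44 ± 0.13 in rescue on the log2 scale. Pairing naive and 24 h libraries by number also called Cox4i1, Ndufa1, Ndufb10, Ndufb3 and Ndufb5 higher at 24 h in rescue. Comparisons with wt below share the wt libraries.

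Libraries of the same group differed in how much they held of short transcripts, which touches every comparison between genotypes. Many members are short, 43 of the 87 having at most 700 bases, and 164 other genes of that length with at least 10 CPM on average were followed beside them. Within naive libraries, wt 3 was low for both sets, with median log2 deviations of -0.34 for the members and -0.36 for the other short transcripts from the mean of all naive libraries. The naive libraries CD28-/- 1 (0.32 and 0.35) and rescue 2 (0.44 and 0.30) were high for both. Members longer than 700 bases went the same way, at -0.25 in wt 3, 0.21 in CD28-/- 1 and 0.38 in rescue 2. The shorter members were at -0.42, 0.36 and 0.49 in that order. At 24 h all 4 wt libraries were on the high side, with members at 0.14 to 0.19. What moves the short transcripts together was not tested, so their values, and the counts with a term for their level in the model, stand beside the results that follow.

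**Figure D4:**
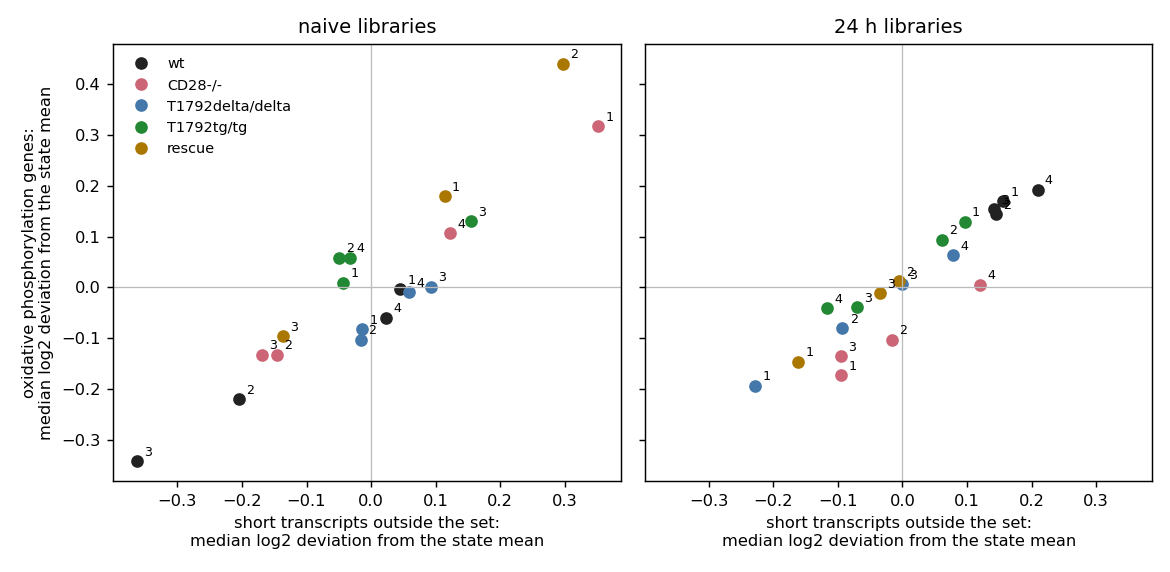
Median log2 deviation of the oxidative phosphorylation genes from the mean of the libraries in the same state (vertical axis) against that of 164 short transcripts outside the set (horizontal axis), one point per library with its replicate number, naive cells on the left and 24 h cells on the right. The members follow the short transcripts from library to library, and the 24 h libraries labelled CD28-/- lie below the others at a like level of short transcripts.

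Activated cells labelled CD28-/- had lower levels of many members than activated wt cells, with the calls spread unevenly over the chain. Of 87 members, 47 were lower and 1 higher, against 27.8% and 23.7% of all genes, and the median difference was -0.25 (log2) against -0.03 for all genes. Every library labelled CD28-/- lay below every wt library for 52 members and above for 3 (29.6% and 24.5% of all genes). Lower calls were made for 20 of 29 accessory subunits of complex I but 2 of 7 core subunits, 4 of 8 assembly factors, 1 of 4 in complex II, 5 of 8 in complex III, 6 of 12 in complex IV and 9 of 17 in the ATP synthase. The core subunits and complex II were near the share of all genes. Members of at most 700 bases (43) had a median of -0.33 and the 44 longer ones -0.18, and length was not separated from role. Of the 164 other short transcripts 37.8% were lower, with a median of -0.18, and with the term for their level 28 members were lower and 8 higher.

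The lowest against wt was Ndufab1, at 24.1, 25.3, 25.99 and 27.2 CPM in 24 h libraries labelled CD28-/- and 39.5 to 45.3 CPM in wt. These groups lay far apart, and the difference was -0.73 ± 0.08 (SE, adjusted p = 5.6e-09), a level 0.605 times that of wt. Ndufa5 was at 53.9, 54.0, 52.7 and 62.8 CPM against 80.7 to 90.6 CPM in wt, a difference of -0.62 ± 0.12 (SE, adjusted p = 3.0e-05). The assembly factor Ndufaf2 was at 23.1 to 27.2 CPM against 37.2 to 41.3 CPM (-0.60 ± 0.11, adjusted p = 2.0e-05). Uqcrfs1, the Rieske protein, was at 160.0, 170.1, 173 and 174 CPM against 247 to 255 CPM (-0.57 ± 0.08, adjusted p = 1.1e-07). None of these overlapped with wt. In contrast to them, the complex I core subunit Ndufv1 (129 to 143 CPM, wt 132 to 148 CPM) overlapped with wt. Ndufaf3 was the member that was higher, by 0.35 ± 0.12 (adjusted p = 0.011).

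The response itself, tested as the difference between the 24 h changes of both genotypes, was smaller in cells labelled CD28-/- for 54 members and larger for 0. Smaller here and below means a lower signed log2 change, so a larger fall counts as smaller too. The background was 22.4% smaller and 20.8% larger, and the median difference over members was -0.44. Ndufa5 changed by 1.17 ± 0.12 there and by 2.09 ± 0.12 in wt, a difference of -0.92 ± 0.17 (SE, adjusted p = 3.7e-05). Ndufab1 differed by -0.89 ± 0.13 and Cox7a2 by -0.89 ± 0.16. Sdhd, with 1.25 ± 0.08 against 1.99 ± 0.09, differed by -0.75 ± 0.12 (adjusted p = 4.1e-06), while Sdha of the same complex changed by 0.46 ± 0.08 and 0.40 ± 0.08 and was not called. Of the other short transcripts, 39% had a smaller response (median -0.34). With the term for their level 28 members were smaller and 6 larger, and without naive wt 3, CD28-/- 1 and rescue 2 the counts were 33 and 1.

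**Figure D5:**
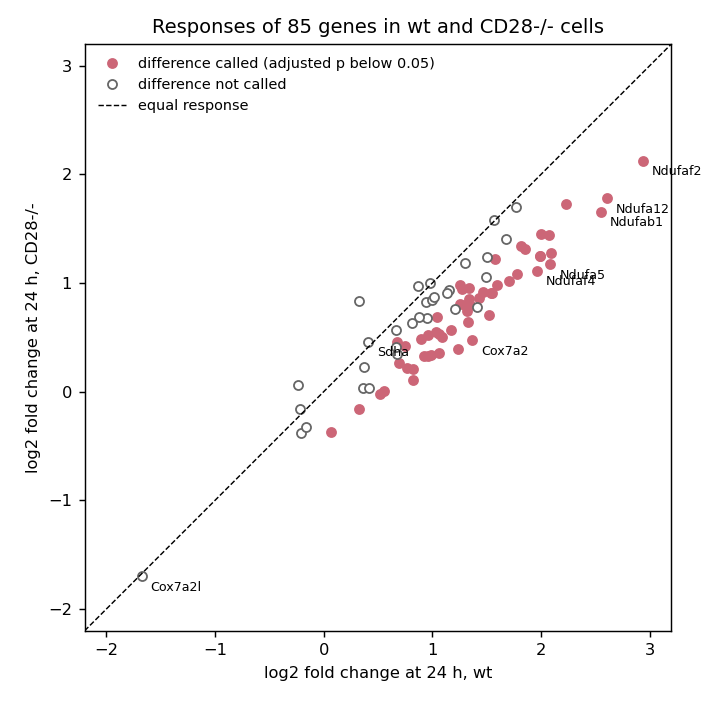
Log2 change at 24 h of 85 tested genes in wt cells (horizontal axis) against cells labelled CD28-/- (vertical axis), with filled points where the difference had an adjusted p below 0.05 and a dashed line of equal response. Filled points lie below the line (Ndufa5 at 2.09 and 1.17), while Cox7a2l lies on it at -1.68 and -1.70.

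In the naive state, 17 members were higher and 0 lower in cells labelled CD28-/- than in wt (background 7.42% and 7.34%), with a median of 0.20. Ndufa4 was at 132, 94.1, 89.5 and 112 CPM against 88.0, 80.1, 68.0 and 82.1 CPM in wt, so its groups do not overlap (0.43 ± 0.12, adjusted p = 0.012), though the call was lost without CD28-/- 1 or wt 3. Atp5j, a peripheral subunit of the ATP synthase, was at 98.9, 71.1, 66.1 and 88.8 CPM against 71.6, 59.3, 54.1 and 66.1 CPM, with overlapping groups (0.37 ± 0.10, adjusted p = 0.011), and its call was lost without CD28-/- 1 or 4 or wt 3. Ndufs1 was at 114 to 127 CPM against 99.7 to 107 CPM (0.21 ± 0.05, adjusted p = 0.0064), also without overlap. The median of the other short transcripts was 0.19, and 10.4% of them were higher. The count rests on few libraries: it was 5 without CD28-/- 1, 27 without CD28-/- 2, 3 without CD28-/- 4, 6 without wt 2 and 2 without wt 3. With the term for short transcripts 5 were higher and 3 lower, and the fit of these groups alone called 1.

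Naive T1792delta/delta cells showed no called difference from wt. Of 87 members, 0 were called by edgeR and 0 by DESeq2, with 3 at an unadjusted p below 0.05, while 5.19% of all genes were called. The smallest p belonged to Ndufb4, an accessory subunit of complex I (0.39 ± 0.15, adjusted p = 0.13). At 24 h, 21 members were lower and 0 higher (8.47% and 7.77% of all genes), with a median of -0.21. Uqcrfs1 was at 183, 186, 196 and 216 CPM against 247 to 255 CPM in wt, below all of them (-0.36 ± 0.08, adjusted p = 0.0010). Ndufs7, the core subunit with the last iron-sulphur centre before the quinone, was at 64.2, 63.1, 74.2 and 82.7 CPM against 90.5 to 94.6 CPM (-0.39 ± 0.09, adjusted p = 0.0026). Ndufs7 was picked after its values were seen. Both calls were kept in all 18 alternatives run for this comparison. Uqcr11 differed by -0.49 ± 0.15 (adjusted p = 0.023), and that call was lost without T1792delta/delta 1, T1792delta/delta 2 or wt 4.

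The count of 21 depends on single libraries and moves with the short transcripts. It was 3 without T1792delta/delta 1, 7 without T1792delta/delta 2, 10 without wt 1, 12 without wt 3 and 6 without wt 4. The other short transcripts had a median of -0.22, 18.9% of them lower, and with the term for their level 2 members were lower. Scaling by total counts gave 8. The response differed from that of wt for 5 members, all with a lower signed change (2.95% of all genes): Atp5mpl, Ndufaf3, Ndufs7, Uqcrfs1 and Sdhc. Ndufaf3 was not called in wt and had a log2 change of -0.80 in T1792delta/delta, so it counts here by a larger fall. With naive and 24 h libraries of a number paired, the call of Ndufaf3 was lost (adjusted p = 0.057) and 7 were smaller. Uqcrfs1 changed by 0.62 ± 0.08 here and 1.06 ± 0.08 in wt, a difference of -0.44 ± 0.11 (adjusted p = 0.011). With the short transcript term 0 responses differed, and the 5 became 1 without 24 h T1792delta/delta 1, 24 h T1792delta/delta 2 or naive wt 3, 2 without 24 h wt 4, naive T1792delta/delta 3 or naive wt 2, 3 without naive T1792delta/delta 4, 12 without 24 h T1792delta/delta 4 and 15 without naive wt 1.

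The transgene of miR-17∼92 was accompanied by small differences in naive cells. In T1792tg/tg, 20 members were higher and 1 lower than in wt (10.5% and 12.6% of all genes), with a median of 0.21. Uqcr11 (Entrez Gene 66594, chr10:80402997-80406821) was at 34.0, 25.7, 31.4 and 35.9 CPM against 24.2, 18.6, 15.4 and 21.8 CPM in wt. The groups lay apart, and the difference was 0.67 ± 0.16 (SE, adjusted p = 0.0027). Cox6b1 of complex IV differed by 0.41 ± 0.11, and Cox8a by 0.43 ± 0.14, a call lost without T1792tg/tg 1 or 4 or wt 2 or 3. The median of the other short transcripts was 0.14, 15.2% of them higher, and with the term for their level 15 members were higher and 3 lower. Total counts in place of scaled library sizes gave 49 higher and 1 lower. The count of 21 became 13 without T1792tg/tg 4, 32 without wt 1, 9 without wt 2 and 6 without wt 3.

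At 24 h T1792tg/tg differed from wt for 5 members, all lower (6.45% of all genes lower), with a median of -0.13. They were Ndufv3, Ndufa5, Ndufa7, Atp5e and Sdhc. By Xist and the genes of the Y chromosome, 1 of 4 mice here and 3 of 4 in wt were female, and a term for sex left 1 call, RLE scaling 2 and no filter 3, while the fit of these groups alone gave 15 lower and 1 higher. Ndufv3, an accessory subunit of the module that binds NADH, was at 51.2, 52.0, 42.2 and 42.9 CPM against 61.4, 61.0, 59.6 and 61.0 CPM (-0.37 ± 0.11, adjusted p = 0.019, lost without T1792tg/tg 3 or 4). It fell during the 24 h by 0.86 ± 0.11 in these cells and was not called in wt (-0.22 ± 0.11, adjusted p = 0.053, or 0.0496 with libraries of a number paired), and the difference of the responses was -0.64 ± 0.15 (adjusted p = 0.0039). In all, the response was smaller for 19 members and larger for 0 (7.41% and 8.59% of all genes), Ndufv3 counting as smaller by its larger fall. Pairing naive and 24 h libraries by number also called Ndufa13, Ndufc2 and Atp5e as smaller. The 5 calls became 0 without T1792tg/tg 3 or 4, 1 without wt 1, 3 or 4 and 2 without wt 2, and the 19 became 10 without 24 h T1792tg/tg 3 or 4, 12 without 24 h wt 3 or naive T1792tg/tg 4, 35 without naive wt 1 and 9 without naive wt 3. Total counts gave 44 smaller responses and the fit of these groups alone 36. With the short transcript term 3 members were higher and 1 lower at 24 h, and 3 responses were larger and 5 smaller, while 21.3% of the other short transcripts had a smaller response.

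Rescue is set against the group labelled CD28-/-, since both lack Cd28 by their labels, though not by its level in either state, and differ by the Cre and the transgene. In naive cells 10 members were higher and 2 lower (7.84% and 8.92% of all genes), with a median of 0.14. Of the other short transcripts 4.88% were higher, with a median of 0.065, and with the term for their level 19 members were higher and 2 lower. Ndufb7 was at 63.4, 71.8 and 52.4 CPM in rescue and 58.8, 38.1, 38.05 and 42.4 CPM in cells labelled CD28-/-. These overlap by 1 library, with a difference of 0.50 ± 0.11 (adjusted p = 0.0017). Ndufa5 was at 16.7, 19.5 and 13.9 CPM against 29.1, 21.1, 22.6 and 26.5 CPM, below all of them (-0.57 ± 0.14, adjusted p = 0.0030). Ndufaf4 was at 26.5, 31.6 and 21.7 CPM against 33.3 to 39.1 CPM, also below (-0.42 ± 0.12, adjusted p = 0.010), a call lost without rescue 3. The group labelled CD28-/- was itself called higher than wt for Ndufaf4 in naive cells, by 0.31 on the log2 scale. That call was lost in 10 of 18 alternatives. The count of 12 became 27 without CD28-/- 1, 4 without CD28-/- 2 or 3, 7 without CD28-/- 4 or rescue 1, 4 without rescue 2 and 23 without rescue 3, and it was 19 with total counts and 0 when the fit held these groups alone.

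At 24 h, 0 members differed between rescue and the group labelled CD28-/- by edgeR and 0 by DESeq2, with 5 at an unadjusted p below 0.05, while 18.4% of all genes were called. The smallest p belonged to Cox7a2l (-0.22) and Uqcrfs1 (0.19). With the term for short transcripts 13 members were higher and 2 lower, and 1 was called without rescue 1. The fit of these groups alone called 6 higher and 3 lower. The response differed for 3 members, 2 larger and 1 smaller in rescue (6.96% and 5.84% of all genes). Ndufaf4 changed by 1.74 ± 0.12 in rescue and 1.11 ± 0.10 in cells labelled CD28-/-, a difference of 0.63 ± 0.16 (adjusted p = 0.0071). The naive level in the latter cells was above that of wt, as given above. Ndufa5 changed by 1.73 ± 0.14 and 1.17 ± 0.12, a difference of 0.56 ± 0.18 (adjusted p = 0.037), and Ndufb7 had the smaller response (-0.45 ± 0.15, adjusted p = 0.047). The Ndufaf4 call held in every alternative run, while that of Ndufa5 was lost without 24 h CD28-/- 1, 2 or 3, 24 h rescue 2 or 3, naive CD28-/- 1 or 4 or naive rescue 1 or 3. That of Ndufb7 was lost without 24 h CD28-/- 1, 2 or 4, any 24 h rescue library, naive CD28-/- 2, 3 or 4 or naive rescue 1 or 2. The count of 3 became 1 without 24 h CD28-/- 1 or 2, 24 h rescue 3 or naive CD28-/- 4, and 9 without naive CD28-/- 1. It was 7 with total counts, 5 with DESeq2 and 1 in the fit of these groups alone, and 5 larger and 3 smaller with the short transcript term.

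The sole members called lower in naive cells with the transgene were Ndufa5, in both T1792tg/tg against wt and rescue against the group labelled CD28-/-, and Ndufaf4 in the latter. The first comparison shares no library with the second. In T1792tg/tg Ndufa5 was at 13.3, 14.8, 19.6 and 12.8 CPM, overlapping with wt by 1 library (-0.41 ± 0.13, adjusted p = 0.015). That call was lost without T1792tg/tg 1, T1792tg/tg 4 or wt 1. Ndufaf4 was at 20.1, 23.3, 30.9 and 20.8 CPM there and was not called (-0.27 ± 0.11, adjusted p = 0.070). Its call in naive rescue is against a group that was itself called higher than wt for this gene. Since microRNAs lower their targets by pairing of the seed, bases 2 to 8, with the 3' UTR, the mature sequences from RefSeq (GRCm38.p6) are printed with the seed in capitals, grouped by shared seed.
miR-17-5p: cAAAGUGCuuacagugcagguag
miR-20a-5p: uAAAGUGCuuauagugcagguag
miR-18a-5p: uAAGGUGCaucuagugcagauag
miR-19a-3p: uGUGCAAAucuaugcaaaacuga
miR-19b-3p: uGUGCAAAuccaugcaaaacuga
miR-92a-3p: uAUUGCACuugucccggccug
Ndufa5 and Ndufaf4 each hold a 7-base match in their annotated 3' UTR on GRCm38, as do Uqcrfs1 and Ndufaf7, which were not called lower in those naive cells and are set beside them after their values were seen. Capitals mark the match.
Ndufa5, miR-92a-3p, chr6:24518684-24518690, minus strand: gggaattaaatGTGCAATtaaatgctctg
Uqcrfs1, miR-92a-3p, chr13:30540495-30540501, minus strand: agacttgaaagGTGCAATgtctttgatag
Ndufaf4, miR-19a-3p and miR-19b-3p, chr4:24903490-24903496, plus strand: aatccttccatTTTGCACattagcccact
Ndufaf7, miR-19a-3p and miR-19b-3p, chr17:78946575-78946581, plus strand: tcaggtgtaatTTTGCACaagtaaggact

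Uqcrfs1 differed by -0.13 ± 0.08 in naive T1792tg/tg and -0.09 ± 0.08 in naive rescue and was not called, and Ndufaf7 was higher in naive rescue (0.32 ± 0.10, adjusted p = 0.030). Matches were sparse among the members: 12 of 87 (13.8%) held a match to any of the 4 seeds, against 32.8% of 12666 tested genes with an annotated 3' UTR. Their UTRs were also shorter, with a median of 235 bases against 1148. The 12 members with a match had a median difference of 0.18 in naive T1792tg/tg (range -0.41 to 0.32) and the 75 without 0.22. In naive rescue the medians were 0.13 (range -0.57 to 0.37) and 0.15, and in naive T1792delta/delta 0.03 and 0.10. At 24 h they were -0.15 and -0.12 in T1792tg/tg, -0.23 and -0.20 in T1792delta/delta and 0.11 and 0.04 in rescue. Ndufaf4 was also called lower than wt at 24 h in T1792delta/delta (-0.33), where the cluster is deleted by label. A match is a description of letters and no evidence of binding.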

How the data were processed

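The authors deposited unnormalized counts: the number of reads assigned to each gene in each library. The submitters' processing notes name mm10 and, among tools, edgeR 3.24.3, STAR 2.5.2a, FastQC 0.11.5 and R 3.5. Which program counted reads, on which annotation and with which strand setting, is not given in the sources used here. Per the labels' protocols, stranded TruSeq libraries were read as single 76-base reads. All 38 libraries, of 19427291 to 28020721 counts, were fitted together with edgeR 4.0.16 (R 4.3.3, filterByExpr, TMM scaling, quasi-likelihood test, a coefficient per group), and p-values were adjusted by Benjamini-Hochberg over all 13650 genes tested, in 17 comparisons. CPM values use the scaled library sizes. The fit was tested on simulated data. Shares were compared by exact permutation tests. Members and gene lists were chosen with earlier results of these data known. Values were given for a set of genes of each role and, per comparison, up to 3 called members with the largest difference in each direction, or the 2 with the smallest p. Alternatives were other scaling (total counts, RLE), DESeq2 1.42.0, other filters and thresholds, a replicate block, a term for sex, fits of the compared groups alone and leaving out each library. A term for short transcripts and leaving out 3 naive libraries together were added after seeing the data. Labels give a mouse per library but no link between states, so p-values measure the spread between these libraries. As a check of pairing, deviations of naive and 24 h libraries with the same number correlated above 0.1 for all 4 pairs of wt (0.109 to 0.313) and of T1792delta/delta (0.207 to 0.286). Of the other genotypes, 2 of 4 pairs did in CD28-/-, 2 of 4 in T1792tg/tg and 1 of 3 in rescue. Since 17 of 19 naive libraries correlated best with the 24 h library of their own number, the fit with a block is given where it changes a call. One member's own values are not reported here.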

Additional observations from a re-analysis of the deposited data

Results flagged for a closer look

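Groups of 4 libraries were examined for 32 genes with values in every library and for the summed levels. Of these 320 tests, 10 had a library far from the other 3, all of them for genes and none for a sum, and chance gives about 1 in 20. At 24 h, library 4 labelled CD28-/- was highest for Ndufa5 at 62.8 CPM (others 52.7 to 54.0) and for Ndufa12 at 42.5 CPM (others 37.7 to 38.4), and T1792delta/delta 3 was highest for Sdha at 365 CPM (others 349 to 351). In naive cells, library 1 labelled CD28-/- was highest for Cox6a1 at 112 CPM (others 76.7 to 82.4) and Atp5b at 882 CPM (others 736 to 755). In naive T1792delta/delta, library 4 was lowest for Ndufaf1 at 8.13 CPM and highest for Sdha at 307 CPM and Atp5b at 801 CPM, and library 1 was highest for Uqcrfs1 at 135 CPM. Naive T1792tg/tg 1 was lowest for Ndufs1 at 97.4 CPM.

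The 24 h response differed between cells labelled CD28-/- and wt for 54 members by the test of the difference (edgeR), with the largest log2 differences for Ndufa5 (-0.92), Ndufab1 (-0.89) and Cox7a2 (-0.89). It differed between T1792delta/delta and wt for 5 members, led by Atp5mpl (-0.58), Ndufaf3 (-0.56) and Ndufs7 (-0.47). For T1792tg/tg and wt there were 19, led by Uqcr11 (-0.76), Ndufv3 (-0.64) and Cox8a (-0.60). For rescue and the group labelled CD28-/- there were 3, Ndufaf4 (0.63), Ndufa5 (0.56) and Ndufb7 (-0.45).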

How the results depend on the processing

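Of 4728 values of single genes recomputed under the alternatives, 0 changed sign and 394 lost their call. Only genes called in the main fit were recomputed, so a change of sign was unlikely from the start. At adjusted p below 0.05, counts in the 24 h against naive comparisons held within 1.5 times under each alternative run; with a log2 change of at least 1 also required they were smaller, as given above. Of 162 counts under the alternatives planned at the start that use all libraries or the compared groups, 135 did so, and the cause of the others was not tested. At adjusted p below 0.01 the calls were 2 (naive CD28-/-), 4 (naive T1792tg/tg), 3 (naive rescue), 30, 2 and 0 (24 h CD28-/-, T1792delta/delta and T1792tg/tg) and 0, 2 and 1 (responses of T1792delta/delta, T1792tg/tg and rescue). Fits of the compared groups alone gave 1 (naive CD28-/-), 0 (naive rescue), 16 and 9 (24 h T1792tg/tg and rescue) and 16, 36 and 1 (responses of T1792delta/delta, T1792tg/tg and rescue). Total counts gave 50 and 19 (naive T1792tg/tg and rescue), 8 (24 h T1792delta/delta) and 44 and 7 (responses of T1792tg/tg and rescue). At 24 h T1792tg/tg had 2 with RLE, 3 with no filter and 1 with a term for sex. The T1792delta/delta response had 3 with no filter and 10 with DESeq2, and that of rescue 5 with DESeq2. The term for short transcripts, chosen after seeing the data, gave 8 and 21 (naive CD28-/- and rescue), 2 and 15 (24 h T1792delta/delta and rescue) and 34, 0, 8 and 8 (responses of CD28-/-, T1792delta/delta, T1792tg/tg and rescue). Leaving out naive wt 3, CD28-/- 1 and rescue 2, also chosen later, gave 5 (naive CD28-/-), 32 and 1 (24 h T1792delta/delta and rescue) and 34 and 8 (responses of CD28-/- and rescue). RLE scaling moved the median of all genes to between -0.10 and -0.12 in the responses.

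Leaving out 1 library gave 80 to 82 (wt), 72 to 75 (CD28-/-), 78 to 80 (T1792delta/delta), 78 to 83 (T1792tg/tg) and 68 to 78 (rescue) in the 24 h against naive comparisons. In naive cells it gave 2 to 27 (CD28-/-), 0 to 0 (T1792delta/delta), 6 to 32 (T1792tg/tg) and 4 to 27 (rescue), at 24 h 37 to 50, 3 to 25, 0 to 6 and 0 to 1, and for the difference of responses 40 to 60, 1 to 15, 9 to 35 and 1 to 9, in that order.

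Naive and 24 h libraries of a number went together in every genotype, though weakly in some: their deviations correlated at 0.029 to 0.313 (13 of 19 pairs over 0.1). Of the 19 naive libraries, 17 correlated best with the 24 h library of their own number, all except CD28-/- 2 and rescue 3. Across genotypes, where samples share only the number, the correlations were -0.277 to 0.187. With a replicate block within genotype the counts were 81 (24 h against naive, wt), 79 (T1792delta/delta) and 7 (response of T1792delta/delta), gaining Ndufv3 in wt (adjusted p = 0.0496) and losing Atp5g2 in T1792delta/delta (adjusted p = 0.057). The same block gained Cox4i1, Ndufa1, Ndufb10, Ndufb3 and Ndufb5 at 24 h against naive in rescue (adjusted p = 0.026 to 0.046). For the response of T1792tg/tg against wt it gained Ndufa13, Ndufc2 and Atp5e (adjusted p = 0.023 to 0.043). With the number as a replicate block over all groups no count moved by over 1.5 times, with 81 for the wt response and 47 for 24 h CD28-/-. Depth limits the genes near 1 CPM (Atp5g2, Cox6a2, Cox6b2).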
